A study of Mus musculus with 6 samples.

Results

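Promoter to unbaited loops of 50 to 250 kb are contacts between a captured promoter fragment, the bait, and a segment of the same chromosome that is not itself a bait. They are called mid-range loops here. They were chosen by position alone: both ends on 1 chromosome, the other end not among the baits of any list, and a distance between midpoints from 50 kb to under 250 kb. In all, 15780 distinct mid-range loops were found among 65807 distinct loops of the series. Promoter-capture Micro-C, in which chromatin is cut with micrococcal nuclease, ligated by proximity and enriched for promoters, was run on E14, a wild-type mouse embryonic stem cell line grown on gelatin in serum with LIF. Cells were transfected with esiRNA, a pool of short interfering RNAs made by RNase III, and taken after 48 h. The esiRNA was directed against Smarca4, which encodes Brg1, in the Brg1KD group, against Ino80 in the Ino80KD group, and against EGFP in the Control group, so that every group was transfected. Each of the 3 groups had 2 libraries. Replicate 1 of every group was in batch 1, replicate 2 of both depletions in batch 3 and replicate 2 of Control in batch 2. The labels do not state whether replicates were separate cultures, so p-values measure the spread between these libraries, which may be technical. No RNA was analysed here, so neither the depletion nor stem cell markers could be checked.

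Contacts at this range join promoters to enhancers and to neighbouring genes, mostly inside the same topologically associating domain. Brg1 is the ATPase of esBAF, the SWI/SNF remodeller of embryonic stem cells, which slides and evicts nucleosomes and keeps enhancers accessible. Ino80 is the ATPase of INO80, a remodeller that spaces nucleosomes and acts at promoters and at replication forks. Many mammalian promoters lie in CpG islands, stretches rich in the dinucleotide CpG, which is otherwise rare in the genome, and genes active in most cells usually have such promoters, while many genes used in 1 cell type do not.

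The number of CpG dinucleotides in the baited promoter was a property along which the deposited fold changes of the 2 depletions ran in opposite directions, as described further on, so promoters with few and with many CpG are printed. In each comparison and direction the 2 contacts with the smallest unadjusted p were taken that have a RefSeq start on the bait. Sequences are RefSeq's for GRCm38.p6, whose chromosomes are those of mm10, from 250 bases before to 50 bases after the RefSeq start on the bait, 5′ to 3′ on the gene's strand. Capitals mark CpG. Contacts of Zic5 (chr14:122465609-122465908, minus strand, 15 CpG), a zinc finger factor gene, and of Hmgb2 (chr8:57511593-57511892, plus strand, 20 CpG), a DNA-bending chromatin protein gene, had values below 0 after Brg1 depletion. Those of Osbp2 (chr11:3722178-3722477, minus strand, 2 CpG), an oxysterol-binding protein gene, and of Cd300ld3 (chr11:115048281-115048580, minus strand, 1 CpG), a gene of the CD300 immune receptor family, had values above 0. The Osbp2 bait lies inside the gene with no gene end within 2 kb, so the start printed for it is an internal one.
Zic5: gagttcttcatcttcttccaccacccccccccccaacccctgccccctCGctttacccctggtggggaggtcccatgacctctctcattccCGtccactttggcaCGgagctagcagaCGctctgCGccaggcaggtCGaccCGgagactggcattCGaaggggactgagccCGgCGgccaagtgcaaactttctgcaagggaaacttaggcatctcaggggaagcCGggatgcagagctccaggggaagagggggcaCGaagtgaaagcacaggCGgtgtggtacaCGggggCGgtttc
Hmgb2: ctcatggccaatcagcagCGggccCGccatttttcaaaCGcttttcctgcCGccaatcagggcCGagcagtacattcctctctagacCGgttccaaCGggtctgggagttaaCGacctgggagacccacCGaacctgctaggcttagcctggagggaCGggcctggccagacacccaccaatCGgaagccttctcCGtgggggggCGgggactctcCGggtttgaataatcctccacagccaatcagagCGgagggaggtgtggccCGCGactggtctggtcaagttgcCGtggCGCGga
Osbp2: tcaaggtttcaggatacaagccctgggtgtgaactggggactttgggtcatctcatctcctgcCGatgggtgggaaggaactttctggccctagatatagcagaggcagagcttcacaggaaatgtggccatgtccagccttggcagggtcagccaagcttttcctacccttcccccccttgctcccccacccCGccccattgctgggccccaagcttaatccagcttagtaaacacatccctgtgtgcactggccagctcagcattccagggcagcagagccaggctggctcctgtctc
Cd300ld3: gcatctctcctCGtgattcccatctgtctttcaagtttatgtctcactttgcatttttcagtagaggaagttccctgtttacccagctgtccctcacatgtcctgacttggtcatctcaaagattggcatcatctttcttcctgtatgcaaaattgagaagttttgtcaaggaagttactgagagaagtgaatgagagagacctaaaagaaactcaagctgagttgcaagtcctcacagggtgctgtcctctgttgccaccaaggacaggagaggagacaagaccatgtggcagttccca

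After Ino80 depletion the promoters with values below 0 were those of Dhrs2 (chr14:55221757-55222056, plus strand, 7 CpG), a short-chain dehydrogenase gene, and Olfr988 (chr2:85353875-85354174, minus strand, 1 CpG), an olfactory receptor gene. Those with values above 0 were Bahd1 (chr2:118901365-118901664, plus strand, 45 CpG), a gene for a heterochromatin protein, and 4933428G20Rik (chr11:97500291-97500590, minus strand, 42 CpG), to which no role is given here. The letters GGGCGG, searched on both strands, were in the promoters of Zic5, Hmgb2, Osbp2, Dhrs2, Bahd1 and 4933428G20Rik and in 46.1% of the 11861 promoters on listed baits, or 35.7% of all 32851 promoters of the table. The letters TATAAA were in that of Dhrs2 alone among the 8 and in 13.5% of the 11861 and 13.6% of the 32851.
Dhrs2: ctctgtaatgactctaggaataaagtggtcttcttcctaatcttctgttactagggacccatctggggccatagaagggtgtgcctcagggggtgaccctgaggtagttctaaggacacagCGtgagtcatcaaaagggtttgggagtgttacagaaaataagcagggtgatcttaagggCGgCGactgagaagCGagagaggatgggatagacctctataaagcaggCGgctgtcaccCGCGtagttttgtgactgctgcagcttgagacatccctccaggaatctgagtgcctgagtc
Olfr988: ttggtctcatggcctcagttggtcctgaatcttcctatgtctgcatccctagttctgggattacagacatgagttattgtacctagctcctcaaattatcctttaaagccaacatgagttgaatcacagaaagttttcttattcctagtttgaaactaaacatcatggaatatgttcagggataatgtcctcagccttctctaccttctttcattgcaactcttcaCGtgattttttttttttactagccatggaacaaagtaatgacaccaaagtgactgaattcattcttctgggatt
Bahd1: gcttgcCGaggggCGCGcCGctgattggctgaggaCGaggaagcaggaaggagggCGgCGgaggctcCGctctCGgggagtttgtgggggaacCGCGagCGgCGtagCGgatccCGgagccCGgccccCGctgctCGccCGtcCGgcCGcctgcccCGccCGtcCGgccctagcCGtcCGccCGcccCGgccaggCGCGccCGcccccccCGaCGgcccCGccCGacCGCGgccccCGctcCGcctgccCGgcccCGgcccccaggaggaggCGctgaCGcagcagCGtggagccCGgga
4933428G20Rik: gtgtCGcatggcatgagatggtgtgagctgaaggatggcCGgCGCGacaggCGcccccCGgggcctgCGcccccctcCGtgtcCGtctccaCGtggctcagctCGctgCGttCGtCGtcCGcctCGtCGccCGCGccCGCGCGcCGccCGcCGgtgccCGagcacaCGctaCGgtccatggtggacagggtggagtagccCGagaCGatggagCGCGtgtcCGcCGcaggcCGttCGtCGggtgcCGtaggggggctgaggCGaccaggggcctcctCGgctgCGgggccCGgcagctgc

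The lists held 5182 and 4438 mid-range loops in the Brg1KD libraries, 5509 and 4982 in the Ino80KD libraries, and 5532 and 4537 in the Control libraries, replicate 1 first in each pair. In every group the library of batch 1 had the larger number, and the ranges of the groups overlapped. They came from 3027 to 3735 baits a library, 15.9% to 19.6% of the 19070 baits in the lists. Of those baits, 12033 carried an end of a protein-coding gene, 1238 lay within 2 kb of one, 4272 lay inside a gene and 1527 met none, so that a bait is not always a gene's start. No other end overlapped a bait of the lists. A promoter whose bait has no loop in any list is not among those baits, so an unbaited end can still hold a promoter. Other ends were segments of at most 20 kb, trimmed where a bait cut into them. The files give no read counts, and the depth of the libraries is unknown. Brg1KD replicate 1 stood apart from the other libraries, with 5254 interchromosomal loops against 3501 to 3859 and with mid-range loops at 42.1% of its intrachromosomal loops against 31.4% to 37.3%.

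By distance, mid-range loops were most numerous between 150 and 200 kb in 5 of the 6 libraries. Between 50 and 100 kb the lists held 1073 and 907 loops in Brg1KD, 1232 and 1079 in Ino80KD, and 1228 and 971 in Control. Between 150 and 200 kb they held 1475 and 1286 in Brg1KD, 1500 and 1365 in Ino80KD, and 1457 and 1257 in Control. Control replicate 1 was the exception, with 1507 loops between 100 and 150 kb. Under 50 kb, counted in 1 step, there were 1474 to 1774 loops to unbaited ends a library, and above 250 kb the number per step fell in every library. The limits fell at no break: from 40 to 50 kb and from 50 to 60 kb the lists held 161 to 174 and 167 to 192 loops a library, and from 240 to 250 kb and from 250 to 260 kb 222 to 275 and 215 to 266. The median distance was 151 to 158 kb in all libraries. Of the loops whose gene starts on the bait, 50.9% to 52.7% reached to the gene's side of its start.

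**Figure D1:**
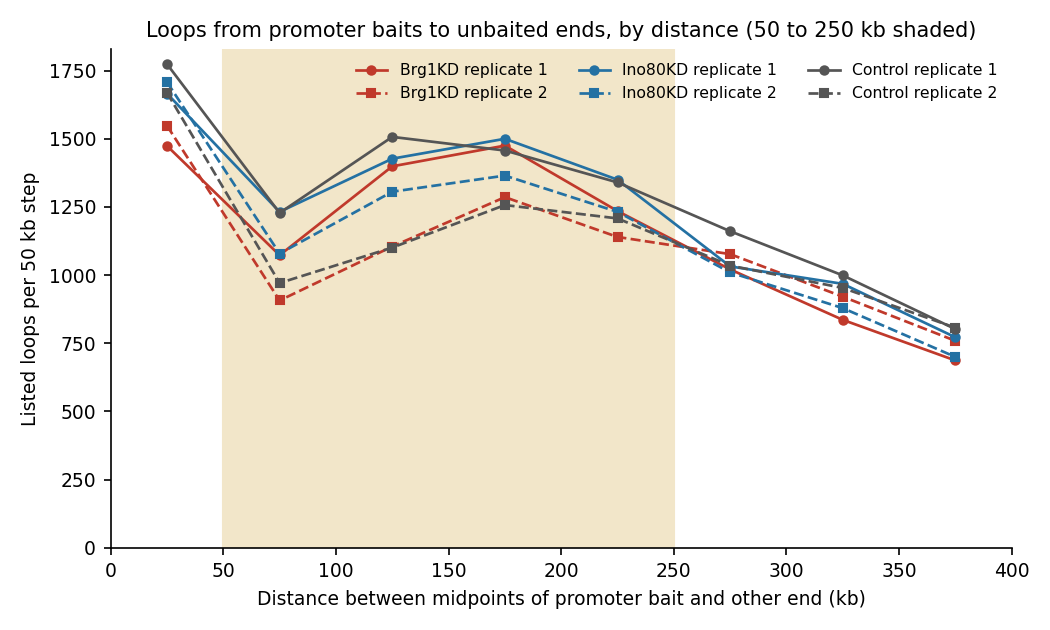
Listed loops from promoter baits to unbaited ends (vertical axis, number per 50 kb step) against the distance between midpoints (horizontal axis, kb), 1 line per library, with 50 to 250 kb shaded. Within the shaded range the libraries peak between 100 and 200 kb, and in each group replicate 1 (solid line) lies above replicate 2 (dashed line) at every step.

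Most mid-range loops were listed once. Counted by identical ends, 9316 of the 15780 (59.0%) were in 1 library and 694 (4.40%) in all 6, against 68.2% and 3.09% of the 49989 intrachromosomal loops. The loops in all 6 lists were shorter, with a median distance of 141 kb against 166 kb for loops in 1 library. The median of the highest score was 10.8 against 5.52. That highest score is taken over 6 values for loops in all 6 lists, but over 1 value for loops in 1 library. A highest value can rise with the number of lists by construction, so no difference in score is concluded here. The score is the authors' own, starts at 5, and is compared here mostly by rank within a list. A loop that is not listed is not shown to be absent.

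Mid-range loops were set beside both neighbouring distance classes within each library. A loop counted as listed again if the other library of its group had a loop with both ends within 5 kb, which takes in abutting segments. This held for 54.6% ± 4.25 of mid-range loops, for 37.5% ± 2.82 of unbaited loops of 250 kb to 1 Mb, and for 63.3% ± 2.60 of unbaited loops under 50 kb (SD, n = 6 libraries). The differences, 17.1 and -8.64 percentage points, had the same sign in 6 of 6 libraries. The 2 libraries of a group count the same shared loops here, so there are 3 independent pairs, which cannot give an exact p below 0.25, and no p is given. Against the shorter loops the difference was -2.26 points at a score of at least 7, and between loops of 50 to 100 kb and of 25 to 50 kb it was -4.07 points. By library, 48.4% to 59.2% of mid-range loops were found again in the other library of the group. In a library of another group, 48.7% to 59.6% were found again. These ranges overlapped almost wholly, so by this measure libraries of 1 group were not set apart from those of other groups. The other end lay inside a protein-coding gene by its midpoint for 50.5% ± 1.13 of mid-range loops, against 41.1% ± 1.33 at 250 kb to 1 Mb and 60.04% ± 2.03 under 50 kb (exact sign permutation over 6 pairs, Benjamini-Hochberg adjusted over 12 comparisons, p = 0.0375 for both; before adjustment p = 0.031, the smallest that 6 pairs allow). The 12 comparisons of the adjustment include both of loops listed again. The share inside a gene takes in ends in the bait's own gene, 38.9% of loops under 50 kb against 4.78% of mid-range loops. The lower share than at shorter range is therefore not read as fewer ends in other genes. Other measures follow from distance almost directly and are given as a description. The other end lay in the gene of the bait for 4.78% ± 0.355, against 1.67% ± 0.221 and 38.9% ± 0.906, and 88.2% ± 0.618 spanned at least 1 other bait, against 92.4% ± 0.448 at longer and 26.1% ± 1.41 at shorter range, and the median number of baits passed over was 3 in every library. Their other ends were met by 2 or more baits of the same library in 66.1% ± 1.54 of cases, against 53.7% ± 1.60 at 250 kb to 1 Mb and 59.8% ± 2.56 under 50 kb (exact permutation, adjusted p = 0.0375 for both). This last difference from shorter loops turned round close to the limit, where loops of 50 to 100 kb lay 3.15 points below those of 25 to 50 kb. The median score did not pass the test in either comparison (exact permutation, adjusted p = 0.938 and 0.0682). At a score of at least 7 the differences were 0.21 and 0.067 (exact permutation, adjusted p = 0.0341 for both). That limit is set on the score itself, so it compares only the upper part of the scores, and no difference in score is concluded from it.

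**Figure D2:**
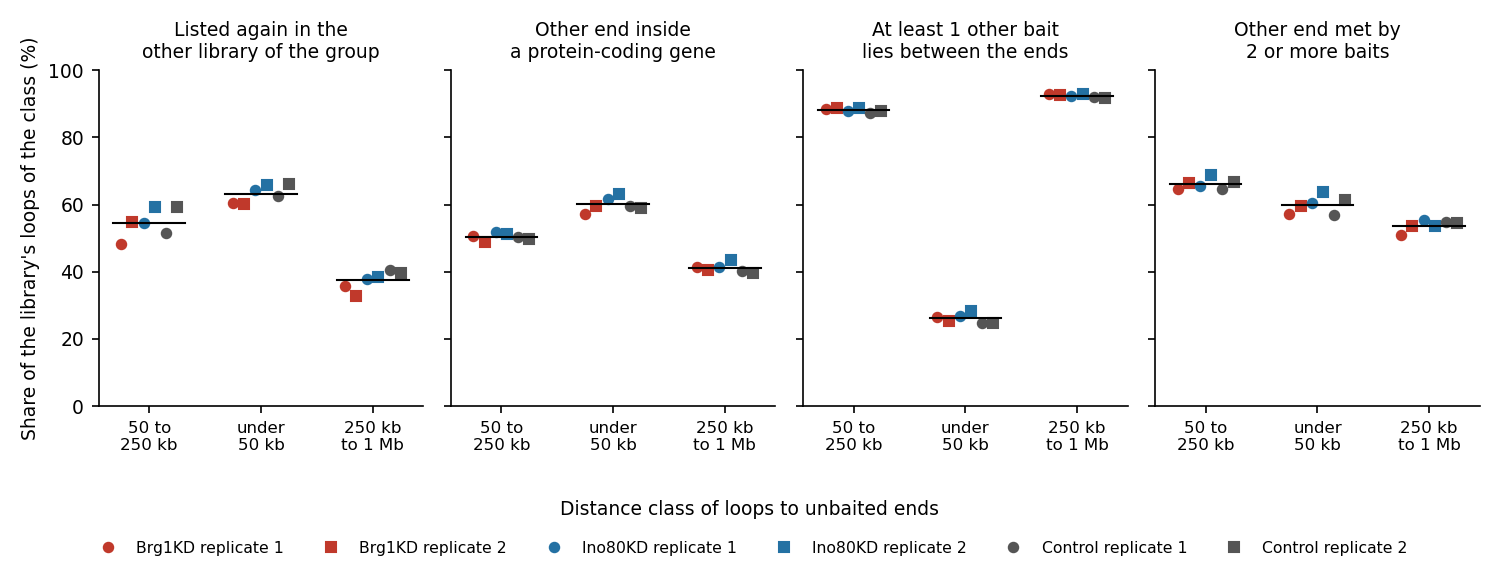
Share of each library's loops (vertical axis, percent) with 4 properties, for mid-range loops, unbaited loops under 50 kb and unbaited loops of 250 kb to 1 Mb (horizontal axis). Each point is a library and each black line the mean of 6. The libraries of a class lie close together, and in each panel the mid-range loops of every library lie on 1 side of the same library's loops in either neighbouring class.

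Many other ends were shared. Of 7953 other ends in the union, 3153 (39.6%) were met by 2 or more baits and 109 (1.37%) by 10 or more. Of these 109, 28 were on chromosome 7, 18 on chromosome 17, 16 on chromosome 10 and 15 on chromosome 11. These chromosomes also had the most mid-range loops for their number of baits, 32.9 to 40.3 per 100 baits a library on average, against 16.2 on chromosome 16. The segment met by the most baits, chr11:69720001-69740000 in mm10, overlaps Polr2a, which encodes the largest subunit of RNA polymerase II. It was listed with 11 and 13 baits in Brg1KD, 16 and 14 in Ino80KD, and 15 and 13 in Control, and with 25 different baits in all, named for 21 genes. Both depletions met or overlapped Control, both Ino80KD libraries lay above both Brg1KD libraries, and Brg1KD replicate 1 was lowest. The adjoining segment, also on Polr2a, was listed with 7 and 6 baits in Brg1KD and 9 and 9 in Ino80KD, against 13 and 12 in Control, and here neither depletion overlapped Control. On chromosome 10, the segment of Arid3a, a gene for an AT-rich DNA-binding factor, was met by 21 baits, as was that of Celf5, a gene for an RNA-binding protein. The Celf5 segment was listed with 12 and 10 baits in Brg1KD, 8 and 8 in Ino80KD, and 10 and 6 in Control. Baits of 1 segment lie close together, so they are not separate measurements.

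At the Hoxc cluster, which holds homeobox genes that pattern the body axis, 14 baits met 1 segment at chr15:103160001-103180000. It lies on Smug1, a gene for a uracil-DNA glycosylase, and its baits were named for Gpr84 and for 9 Hoxc genes. The number of baits was 10 and 11 in Brg1KD, 12 and 11 in Ino80KD, and 9 and 11 in Control and the groups overlapped. For Hoxc8 the score of this contact, 180 kb long, was 20.7 and 25.8 in Brg1KD, 16.5 and 26.8 in Ino80KD, and 18.3 and 23.1 in Control. For Hoxc10, 203 kb away, it was 19.2 and 17.6 in Brg1KD, 14.7 and 19.2 in Ino80KD, and 14.05 and 13.97 in Control. In the authors' deposited tables the region of the Hoxc8 contact had a log2 fold change of 0.35 ± 0.26 (SE) in Brg1KD and of 0.17 ± 0.26 in Ino80KD, with unadjusted p = 0.169 and 0.50.

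**Figure D3:**
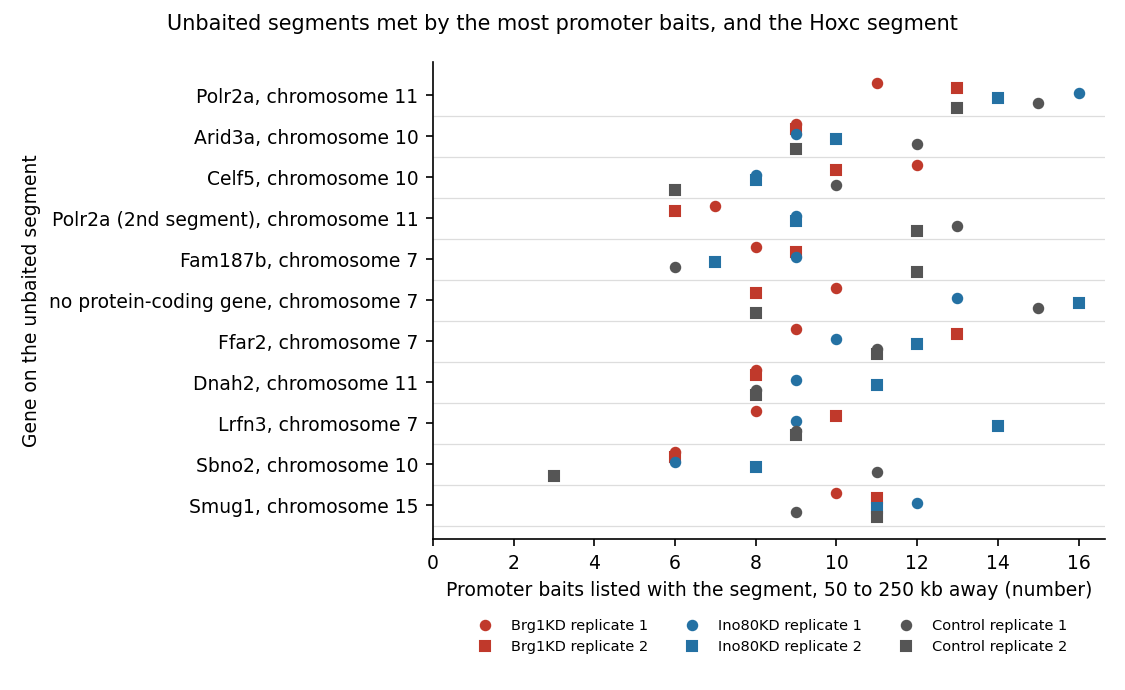
Promoter baits listed with each of the 10 most often met unbaited segments and with the Smug1 segment facing the Hoxc cluster (horizontal axis, number of baits 50 to 250 kb away), by library, with segments named by a gene they overlap. At the upper Polr2a segment the libraries lie between 11 and 16 baits, and at the second Polr2a segment both depletions lie below both Control libraries.

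Over the 6 libraries, the gene with the most mid-range loops was Chd3, a chromatin remodeller gene of the NuRD complex with 4 baits on chromosome 11, with 33 and 31 loops in Brg1KD, 30 and 27 in Ino80KD, and 27 and 19 in Control. Both Brg1KD libraries and Ino80KD replicate 1 lay above both Control libraries, and Ino80KD replicate 2 equalled the higher Control. Ptprj, a receptor tyrosine phosphatase gene, had 17 and 20 in Brg1KD, 18 and 14 in Ino80KD, and 17 and 16 in Control. Cntrob, a centriole protein gene next in order, had 11 and 16 in Brg1KD, 9 and 14 in Ino80KD, and 12 and 18 in Control. For both genes the groups overlapped. The other 7 were Flg, which encodes the skin barrier protein filaggrin, Sipa1l3, a regulator of Rap signalling, Armc9, a cilium gene, Pknox2, a homeodomain factor, Ttc19, a mitochondrial protein gene, Hoxc4, and Igfbp4, which binds insulin-like growth factors, with 48 to 61 loops each. The loops of Armc9 and Igfbp4 all reached to higher coordinates and those of Pknox2 and Ttc19 all to lower ones.

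Among loops in all 6 lists, the 10 with the highest lowest rank were led by a contact of a bait inside Sez6, a neuronal gene, with a segment on Myo18a, a myosin gene, 139 kb away (chr11:77820001-77840000). Its score was 26.0 and 35.3 in Brg1KD, 29.6 and 26.2 in Ino80KD, and 27.8 and 23.4 in Control. H2-T3, a nonclassical MHC class I gene, came next, with 17.8 and 17.6 in Brg1KD, 18.1 and 18.6 in Ino80KD, and 20.3 and 16.96 in Control. Pcdhga12, a clustered protocadherin gene, had 19.9 and 15.9 in Brg1KD, 22.6 and 23.8 in Ino80KD, and 18.2 and 16.5 in Control, so that both Ino80KD libraries lay above the other 4. Tmem164, a membrane protein gene, met a segment on Rtl9, and Ache, which encodes acetylcholinesterase, met one on the mucin gene Muc3. Trmt1, a tRNA methyltransferase gene, met a segment on Nfix and Dand5. At 2 further genes of this set the Brg1KD libraries lay below the other 4. Zfp54, a zinc finger gene, had scores of 15.0 and 15.7 in Brg1KD, 26.2 and 25.6 in Ino80KD, and 23.95 and 26.9 in Control. Ergic1, which encodes a protein of the ER to Golgi route, had 15.5 and 13.5 in Brg1KD, 21.6 and 18.7 in Ino80KD, and 24.4 and 22.5 in Control. In the authors' deposited table for Brg1KD the regions of these contacts had log2 fold changes of -0.12 ± 0.27 (Zfp54) and 0.11 ± 0.21 (Ergic1), neither larger than its error. H2-T3, Pcdhga12 and Zfp54 belong to families of near-identical copies, and reads of such genes can be placed uncertainly.

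The next comparison asked whether depletion of Brg1 changed the number of mid-range loops. The Brg1KD libraries held 4810 ± 526 mid-range loops against 5034.5 ± 704 in Control (SD, n = 2 each), a ratio of 0.955. The difference was smaller than the spread between replicates (exact two-sided permutation p = 0.667, where 2 against 2 libraries cannot go below 0.33). Within batch 1 the ratio was 0.937. As a share of intrachromosomal loops, mid-range loops made up 38.1% ± 5.68 in Brg1KD against 33.7% ± 3.23 in Control (exact permutation p = 0.667). That difference, 4.39 percentage points, was 6.13 within batch 1 and 0.378 without Brg1KD replicate 1, the library that stood apart. Some other classes were fewer in both Brg1KD libraries than in both Control libraries: 1474 and 1548 against 1774 and 1669 for unbaited loops under 50 kb, 4752 and 5533 against 6108 and 6239 for those of 250 kb to 1 Mb, and 417 and 748 against 1014 and 1078 for those of 1 to 10 Mb (exact permutation p = 0.333 for each). So were intrachromosomal loops to a baited end, at 337 and 447 against 675 and 506, and all intrachromosomal loops, at 12313 and 13032 against 15385 and 14451 (exact permutation p = 0.333 for each). Mid-range loops did not separate the groups in this way, and neither did loops over 10 Mb, at 151 and 318 in Brg1KD against 282 and 422 in Control, nor interchromosomal loops, at 5254 and 3553 against 3660 and 3769. The log2 ratio of mid-range loops to loops of 250 kb to 1 Mb was 0.12 and -0.32 in Brg1KD against -0.14 and -0.46 in Control, and these overlapped (exact permutation p = 0.667).

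After Ino80 depletion the libraries held 5245.5 ± 373 mid-range loops against 5034.5 ± 704 in Control (SD, n = 2 each, exact permutation p = 1), a ratio of 1.04 that was 0.996 within batch 1. Their share was 36.2% ± 1.55 in Ino80KD against 33.7% ± 3.23 in Control (exact permutation p = 0.667). The log2 ratio of mid-range loops to those of 250 kb to 1 Mb was -0.043 and -0.12 in Ino80KD against -0.14 and -0.46 in Control, higher in both Ino80KD libraries (exact permutation p = 0.333, the smallest possible). Loops of 250 kb to 1 Mb themselves numbered 5674 and 5407 in Ino80KD against 6108 and 6239 in Control. Between the depletions, Ino80KD had 1.09 times the mid-range loops of Brg1KD, 1.06 times within batch 1 and 1.12 times within batch 3, with overlapping libraries (exact permutation p = 0.667).

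Loops listed in both libraries of a group and in neither of another were few. Of 12368 mid-range loops in the Brg1KD or Control lists, 337 (2.72%) were in both Brg1KD and neither Control library, where the share over all intrachromosomal loops was 1.95%, and 474 (3.83%) were in both Control and neither Brg1KD library, where it was 3.56%. Of 12494 in the Ino80KD or Control lists, 420 (3.36%) were in both Ino80KD and neither Control library, against 2.5% over all intrachromosomal loops, and 348 (2.79%) the other way, against 2.76%. Of 12577 in the lists of the depletions, 545 (4.33%) were in both Ino80KD and neither Brg1KD library, against 3.77%, and 339 (2.70%) the other way, against 2.18%. The shares of mid-range loops were slightly above those of all intrachromosomal loops, which include them, in every direction. Mid-range loops were also less often in 1 library only, at 59.0% against 68.2%. These shares are therefore not read as a result about a depletion.

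By score rank, 5 such loops were named in each direction. In both Brg1KD and neither Control library were a contact of Ifi204, an interferon-inducible gene, with scores of 8.41 and 7.23, a contact of Mto1, a mitochondrial tRNA-modifying enzyme gene, with 10.9 and 6.99, 2 contacts of Safb2, a nuclear scaffold protein gene, and 1 of Nrbp2, a pseudokinase gene. In both Control and neither Brg1KD library were contacts of Tut1, a terminal uridylyltransferase gene (10.4 and 11.5), Uevld (12.9 and 8.70), Spty2d1, a histone chaperone gene (10.5 and 8.91), Inpp5f, a phosphoinositide phosphatase gene (14.4 and 11.9), and Elmod3 (8.67 and 8.48). Uevld and Spty2d1 met the same segment on chromosome 7, at 47140001 to 47160000. The contacts of Tut1, Spty2d1 and Elmod3 were in neither Ino80KD library either. In both Ino80KD and neither Control library were contacts of H2-M5, an MHC class I gene, Gmfg, an actin regulator gene, Cemip, which encodes a hyaluronan-degrading protein, Arid3a, and the same Safb2 contact that both Brg1KD libraries listed. Contacts of Zmynd10, a cilium gene, and Cnn2, a calponin gene, completed the set in both Control and neither Ino80KD library.

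For the 694 mid-range loops in all 6 lists, score ranks within each library's intrachromosomal list could be set side by side. Both Brg1KD libraries ranked above both Control libraries at 97 loops (13.98%) and below at 134 (19.3%), where over all 1546 intrachromosomal loops in every list it was 15.7% and 19.9%. Both Ino80KD libraries ranked above both Control libraries at 129 loops (18.6%) and below at 110 (15.9%), against 17.7% and 16.6%. Both Ino80KD libraries ranked above both Brg1KD libraries at 153 loops (22.0%) and below at 95 (13.7%), against 20.8% and 15.6%. These shares were near those of all loops and are no result about mid-range loops. The contact with the widest gap in rank in each of these 6 directions is given to show the size of single differences, and was chosen after its values were seen. Against Control, a contact of Asgr2, a liver receptor gene, was higher in Brg1KD, with scores of 8.17 and 9 in Brg1KD, 6.13 and 6.53 in Ino80KD, and 5.11 and 5.29 in Control. That of Wnt3a, a gene for a signalling ligand, with a segment on Zkscan17 was lower in Brg1KD, with 5.15 and 5.38 in Brg1KD, 6.31 and 8.19 in Ino80KD, and 8.26 and 9.30 in Control. A contact of Tmem54 with a segment on Azin2 was higher in Ino80KD, with 8.21 and 5.80 in Brg1KD, 7.29 and 8.78 in Ino80KD, and 5.38 and 5.07 in Control. One of Vwa7, in the MHC region, was lower in Ino80KD, with 6.18 and 6.12 in Brg1KD, 5.32 and 5.40 in Ino80KD, and 10.7 and 7.44 in Control. Between the depletions, a contact of Mag, a myelin gene, with a segment on Ffar2 was higher in Ino80KD, with 7 and 7.87 in Ino80KD, 5.33 and 5.14 in Brg1KD, and 5.45 and 5.37 in Control. One of Golt1a, a Golgi transport gene, with a segment on Plekha6 was lower in Ino80KD, with 5.63 and 5.09 in Ino80KD, 8.27 and 8.78 in Brg1KD, and 6.17 and 5.44 in Control.

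The authors deposited a table of regions for each depletion against Control, with a log2 fold change, its error and p-values, and these describe the same contacts on another scale. No header states the direction. Mid-range loops listed in both Brg1KD and neither Control library had a value above 0 in the authors' deposited table in 84.2% of cases, and those listed the other way in 23.0%. For Ino80KD the authors' deposited table gave 91.4% and 19.9%. Values above 0 were therefore read as higher in the depleted cells. In range were 13704 of 33243 regions in the authors' deposited table for Brg1KD, from 7309 baits, and 14082 of 34774 in that for Ino80KD, from 7386 baits. Regions were wide, with a median of 106 kb in the authors' deposited table for Brg1KD and of 104 kb in that for Ino80KD, and 90.3% and 91.1% of them overlapped a bait. They are therefore contacts with a stretch of chromosome at mid-range and seldom with an unbaited segment alone. Both tables share the Control libraries.

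In range, no region passed the adjustment in either of the authors' deposited tables, with 1.00 as the lowest adjusted p. Before adjustment, at p under 0.05, the authors' deposited table for Brg1KD had 70 higher (0.511%) and 120 lower regions (0.876%) in range, where over all regions it had 0.373% higher and 0.827% lower. The authors' deposited table for Ino80KD had 175 higher (1.24%) and 44 lower (0.312%), where over all regions it had 0.912% higher and 0.382% lower. Adjusted calls were 0% of all regions in both of the authors' deposited tables. The median log2 fold change in range was 0.016 in the authors' deposited table for Brg1KD and 0.040 in that for Ino80KD, where over all regions the medians were -0.0084 and 0.0023. In regions that overlapped no bait the medians turned to -0.037 and -0.048 in the authors' deposited tables, over 1333 and 1258 regions. By distance, the median in the authors' deposited table for Ino80KD was 0.071 at 50 to 100 kb, 0.050 at 100 to 150 kb, 0.026 at 150 to 200 kb and 0.00063 at 200 to 250 kb. In the authors' deposited table for Brg1KD these were -0.0033, 0.029, 0.029 and 0.0024.

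Sorted by the number of CpG in the baited promoter, the deposited fold changes of the depletions ran in opposite directions. At promoters with 0 to 4, 5 to 12, 13 to 20 and over 20 CpG, the median log2 fold change in range in the authors' deposited table for Brg1KD was 0.073, 0.029, -0.029 and -0.065. In the authors' deposited table for Ino80KD it was -0.036, 0.052, 0.072 and 0.089. Contacts of CpG-rich promoters thus lay lower in Brg1KD and higher in Ino80KD, and those of CpG-poor promoters the reverse. A bait with several starts was classed by the one with the most CpG. Baits without a promoter sequence are in no class, which leaves out 5316 of 13704 regions in range for Brg1KD and 5388 of 14082 for Ino80KD. Their medians in the authors' deposited tables were 0.034 and 0.026. These medians were small beside the error of a single region in range, whose median was 0.28 in each of the authors' deposited tables. At over 20 CpG the authors' deposited table for Brg1KD had 3 higher and 48 lower regions of 2765 called before adjustment, and at 0 to 4 CpG 21 higher and 3 lower of 2307. The authors' deposited table for Ino80KD had 61 higher and 3 lower of 2920 at over 20 CpG, and 10 higher and 10 lower of 2256 at 0 to 4 CpG. Over all distances, 1.72% of regions at over 20 CpG were lower in the authors' deposited table for Brg1KD and 1.55% higher in that for Ino80KD, against 1.74% and 2.09% in range. At 0 to 4 CpG, 0.577% were higher and 0.141% lower over all distances in the authors' deposited table for Brg1KD, against 0.910% and 0.130% in range. In that for Ino80KD 0.311% were higher and 0.580% lower over all distances, against 0.443% and 0.443% in range. The CpG classes were chosen after the data were seen, and regions of neighbouring baits overlap, so no test is given.

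A like order was seen outside the mid-range, so it was not particular to it: at other distances the medians from the lowest to the highest CpG class were 0.020, -0.013, -0.093 and -0.12 in the authors' deposited table for Brg1KD and -0.11, -0.00086, 0.045 and 0.038 in that for Ino80KD. It was also seen in the mid-range regions that overlapped no bait, where promoters with over 20 CpG less those with 0 to 4 differed by -0.13 in the authors' deposited table for Brg1KD and by 0.15 in that for Ino80KD. In those regions the median at over 20 CpG was -0.10 in the authors' deposited table for Brg1KD but -0.0012 in that for Ino80KD, against 0.029 and -0.15 at 0 to 4 CpG, so that CpG-rich promoters did not lie above 0 in Ino80KD there. The base composition of the promoter moved with it. From the lowest to the highest of 4 classes of GC content, the medians in the authors' deposited table were 0.029, 0.038, -0.0067 and -0.055 for Brg1KD and -0.088, 0.040, 0.086 and 0.096 for Ino80KD. The part of GC-dependent capture or amplification in the order was not tested. In the loop lists the order was weaker. Of mid-range loops with a promoter sequence, 32.4% and 32.1% were at promoters with over 20 CpG in Brg1KD, 33.6% and 37.1% in Ino80KD, and 34.5% and 32.2% in Control, and Ino80KD replicate 2 alone stood above all others. Within batch 1, Ino80KD lay 0.960 percentage points below Control by this measure. Between the depletions both Ino80KD libraries lay above both Brg1KD libraries (35.3% ± 2.49 against 32.2% ± 0.164, SD, n = 2 each, exact permutation p = 0.333).

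**Figure D4:**
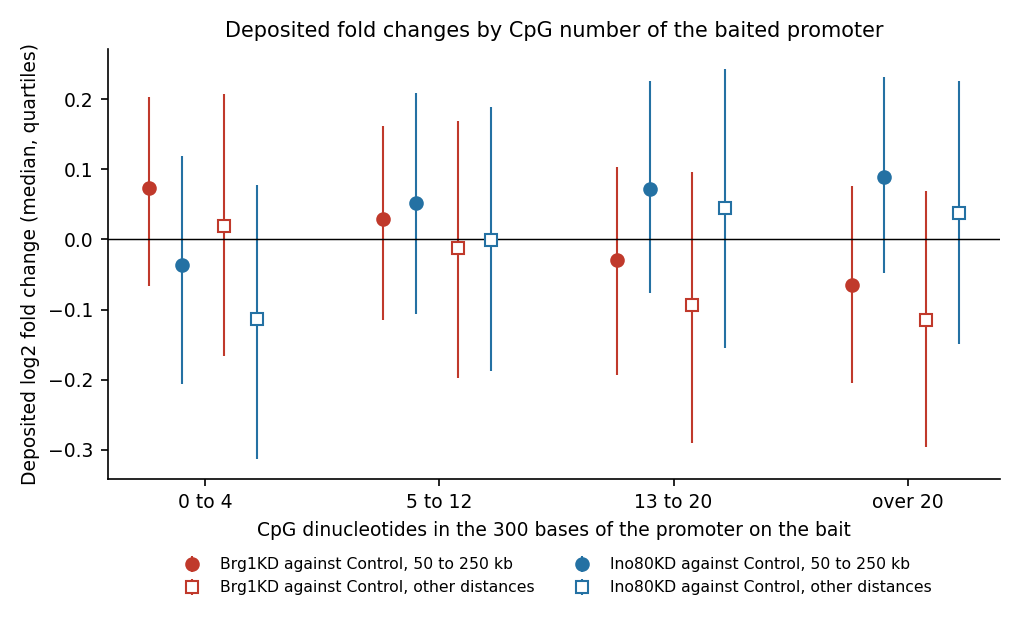
Log2 fold change in the authors' deposited tables (vertical axis, median with lower and upper quartile) against the number of CpG in the 300 bases of the baited promoter (horizontal axis), for regions at 50 to 250 kb (filled circles) and at other distances (open squares). The Brg1KD medians step down from 0.073 to -0.065 across the CpG classes and the Ino80KD medians step up from -0.036 to 0.089, while the quartiles overlap throughout.

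Single contacts with the smallest unadjusted p in Brg1KD, none of which passed the adjustment, were those of 8 genes with values below 0 and 8 with values above 0. Below 0 in the authors' deposited table for Brg1KD were Zic5 at -0.74 ± 0.24 (SE, unadjusted p = 0.00175, 212 kb away) and Hmgb2 at -0.89 ± 0.30 (unadjusted p = 0.00281, 93.3 kb away). Loops of Zic5 to that region were listed 0 and 0 times in Brg1KD, 1 and 1 in Ino80KD, and 3 and 0 in Control. Loops of Hmgb2 were listed 0 and 0 times in Brg1KD, 0 and 1 in Ino80KD, and 1 and 1 in Control. The authors' deposited table for Ino80KD gave -0.0067 ± 0.22 for the Zic5 region and -0.19 ± 0.26 for that of Hmgb2. Further values in the authors' deposited table for Brg1KD were -0.47 ± 0.16 for Fancm, a DNA repair helicase gene, -0.54 ± 0.19 for Arf6, a small GTPase gene of membrane traffic, -0.67 ± 0.23 for Dlg1, a cell polarity scaffold gene, and -0.76 ± 0.27 for Chd2, a chromatin remodeller gene. The last were -0.53 ± 0.19 for Atl1, which encodes a GTPase that shapes the endoplasmic reticulum, and -0.67 ± 0.24 for Phlpp1, an Akt phosphatase gene, in the authors' deposited table. Loops of Phlpp1 were listed 0 and 0 times in Brg1KD, 1 and 1 in Ino80KD, and 3 and 1 in Control, and those of Chd2 0 and 0 times in Brg1KD, 1 and 2 in Ino80KD, and 2 and 1 in Control. Those of Arf6 were listed 1 and 0 times in Brg1KD, 1 and 1 in Ino80KD, and 1 and 1 in Control. In the same order Dlg1 had 0 and 0, 0 and 1, and 0 and 3, and Atl1 had 0 and 0, 0 and 0, and 2 and 0. Fancm had 1 loop, in Ino80KD replicate 2, and none in Brg1KD or Control. The bait of Fancm also carries an end of Fkbp3 and that of Atl1 an end of Map4k5. The 6 of these baits with a promoter sequence held 15 to 53 CpG.

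Above 0 in the authors' deposited table for Brg1KD were Osbp2 at 0.50 ± 0.18 (SE, unadjusted p = 0.00513), Cd300ld3 at 0.63 ± 0.23 (unadjusted p = 0.00690) and Grm4, a glutamate receptor gene, at 0.42 ± 0.17. Also above 0 in the authors' deposited table were Entpd8, an ectonucleotidase gene, at 0.47 ± 0.19, Btnl6, a butyrophilin-like gene, at 0.49 ± 0.20, Abca3, a lipid transporter gene, at 0.60 ± 0.25, Cplx2, a synaptic vesicle gene, at 0.44 ± 0.19, and Arhgef1 at 0.58 ± 0.25. Loops of Cd300ld3 to its region were listed 1 and 1 times in Brg1KD, 0 and 0 in Ino80KD, and 0 and 0 in Control, and those of Abca3 1 and 2 times in Brg1KD and in no other library. Arhgef1 likewise had 1 and 1 in Brg1KD and none elsewhere. Osbp2 had 1 loop, in Brg1KD replicate 1, and Grm4 and Entpd8 had 1 each, in Brg1KD replicate 2. Loops of Btnl6 were listed 2 and 1 times in Brg1KD, 0 and 0 in Ino80KD, and 2 and 0 in Control. Those of Cplx2 were listed 3 and 2, 1 and 1, and 0 and 1 times in that order. The 4 of these baits with a promoter sequence held 1 to 4 CpG.

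In Ino80KD the smallest p of all in range was at Bahd1, whose contact 186 kb away with a region holding the baits of Ankrd63, Pak6 and Plcb2 had 0.63 ± 0.20 (SE, unadjusted p = 0.00184) by the authors' deposited table for Ino80KD and -0.19 ± 0.22 in that for Brg1KD. Loops of Bahd1 to that region were listed 2 and 1 times in Brg1KD, 3 and 3 in Ino80KD, and 3 and 2 in Control. The contact of 4933428G20Rik with a region that holds the baits of Epop and Srcin1 had 0.64 ± 0.21 (unadjusted p = 0.00233) by the authors' deposited table for Ino80KD and 0.33 ± 0.23 in that for Brg1KD, and it was listed 2 times in each of the 4 libraries of the depletions and in neither Control library. Radil, a Rap effector gene, had 0.56 ± 0.20 in the authors' deposited table, and its loop was in both Ino80KD libraries and no other. Nup98, a nuclear pore gene whose bait also carries an end of Pgap2, had 0.76 ± 0.27 in the authors' deposited table for Ino80KD and -0.11 ± 0.19 in that for Brg1KD. The others above 0 in the authors' deposited table for Ino80KD were Pcdh1, a protocadherin gene, at 0.50 ± 0.18, Syne4, a nuclear envelope gene, at 1.04 ± 0.38, Ap2a1, a clathrin adaptor gene, at 0.58 ± 0.21, and Icam5, a neuronal adhesion gene, at 0.59 ± 0.22. Loops of Nup98 were listed 1 and 1 times in Brg1KD, 1 and 2 in Ino80KD, and 0 and 1 in Control. Those of Pcdh1 were listed 3 and 4, 3 and 3, and 2 and 3 times in that order. Syne4 and Icam5 each had 1 and 0, 1 and 1, and 0 and 0. Ap2a1 had 1 loop, in Ino80KD replicate 1. Mean signal for Syne4 in the authors' deposited table was 50.2, below the median of 93.4 in range, and the other genes above 0 exceeded that median. The 6 of these baits with a promoter sequence held 7 to 45 CpG.

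Below 0 in the authors' deposited table for Ino80KD were Tut4, a terminal uridylyltransferase gene, at -0.59 ± 0.21 (SE, unadjusted p = 0.00425), and Dhrs2 at -0.55 ± 0.20 (unadjusted p = 0.00511). The olfactory receptor genes Olfr995 and Olfr988, neighbours on chromosome 2, had -1.23 ± 0.47 and -0.65 ± 0.26 in the authors' deposited table for Ino80KD, and both regions hold the bait of Olfr987. Loops of Olfr995 were listed in both Control libraries and no other, and 3 of Olfr988 in Control replicate 2 only. Pou2f1, which encodes the octamer factor Oct1, had -0.58 ± 0.23 in the authors' deposited table, Gbf1, a Golgi trafficking gene, -0.44 ± 0.19, Ano3, an anoctamin gene, -0.76 ± 0.33, and Krtap3-2, a hair keratin-associated gene, -1.04 ± 0.45. The largest of these values came from weak regions. Mean signal in the authors' deposited table was 30.1 for Olfr995, 35.1 for Krtap3-2 and 62.6 for Ano3, against a median of 93.4 in range. The other genes below 0 lay above that median. Loops of Tut4 to its region were in no list. Dhrs2 and Pou2f1 had 1 loop each, in Control replicate 1. In Control replicate 2, Ano3 had 1 and Krtap3-2 had 2, with none in other libraries. Gbf1 had 1 in Brg1KD replicate 1 and 1 in Control replicate 2. The 3 of these baits with a promoter sequence held 0 to 7 CpG. Olfactory receptor and keratin-associated genes have near-identical relatives, and reads can be placed uncertainly among them.

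**Figure D5:**
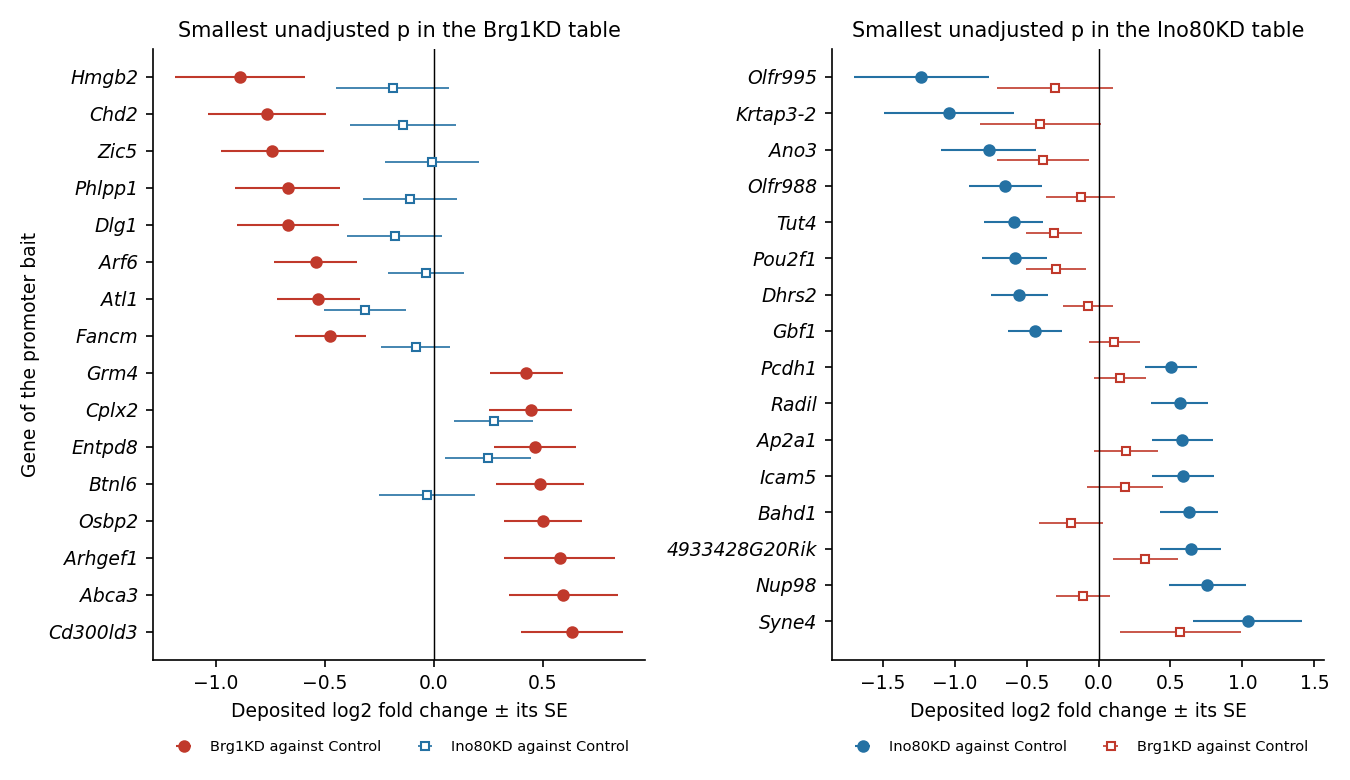
Log2 fold change with its SE in the authors' deposited tables (horizontal axis) for the 16 genes named in each table (vertical axis), with filled circles for the table that named the gene and open squares for the other where it has the region. In the left panel the Brg1KD values of the 8 lower genes run from -0.89 to -0.47, and their Ino80KD values all lie below 0 but nearer to it. The tables share Control.

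Of 28 genes of pluripotency, early differentiation and the targeted remodellers that were looked up, 20 had a bait in the lists and 10 had a mid-range loop. Nanog, a core pluripotency factor gene, was listed with the neighbouring Slc2a3 segment at 82.7 kb in Brg1KD replicate 1 (score 5.77), Ino80KD replicate 1 (6.53) and Control replicate 2 (6.62). The weighted mean over its regions was -0.041 in the authors' deposited table for Brg1KD and 0.17 in that for Ino80KD. Sox2, its partner factor gene, was listed with a segment 120 kb away (chr3:34760001-34780000) in both Ino80KD libraries, at 5.71 and 5.12, and in no other, with 0.19 ± 0.17 in the authors' deposited table for Ino80KD. Both scores were close to the minimum. Sall4, a zinc finger factor gene, had 0 and 4 loops in Brg1KD, 2 and 0 in Ino80KD, and 0 and 0 in Control. Smarca4 itself, the gene targeted in Brg1KD, had 4 and 1 loops in Brg1KD, 1 and 0 in Ino80KD, and 0 and 0 in Control, with scores of 5.07 to 6.32. Its regions had a weighted mean of 0.25 in the authors' deposited table for Brg1KD, over 6 regions with a smallest unadjusted p of 0.124, and of 0.27 in that for Ino80KD. Pou5f1, Mycn, Otx2, Nodal, Fgf5 and Tet2 had 1 to 3 listings each over the 6 libraries. Klf2, a naive-state factor gene, had no mid-range loop but had -0.52 ± 0.22 (unadjusted p = 0.0171) by the authors' deposited table for Brg1KD and 0.23 ± 0.21 in that for Ino80KD. Zfp42, which encodes the stem cell factor Rex1 and likewise had no mid-range loop, had -0.62 ± 0.40 in the authors' deposited table for Brg1KD and 0.17 ± 0.33 in that for Ino80KD. No listed bait was named for Ino80.

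Gene lists were counted as mid-range loops per 1000 of the library. Over 15 lists, the Brg1KD libraries were both lower than either Control library in 4 and higher in 0, the Ino80KD libraries lower than Control in 4 and higher in 2, and the Ino80KD libraries lower than Brg1KD in 2 and higher in 6. In the first 4 were developmental regulators, at 4.82 and 6.08 per 1000 in Brg1KD against 7.05 and 7.27 in Control, and polycomb genes, at 1.93 and 1.35 against 2.71 and 1.98. The others were genes of chromosome architecture, at 1.54 and 2.70 in Brg1KD against 2.71 and 4.19 in Control, and ribosomal protein genes, at 3.47 and 2.25 against 4.52 and 3.97. At a score of at least 7 the ratio turned to 1.05 for developmental regulators and to 1.22 for polycomb genes. Per 1000 intrachromosomal loops, polycomb and ribosomal protein genes no longer separated the groups, and with a gene end on the bait genes of chromosome architecture did not (ratio 0.702, exact permutation p = 0.667). Each of the 4 had an exact permutation p of 0.333, the smallest possible, and none can pass. Histone genes had 5.26 and 6.42 per 1000 in Ino80KD against 4.88 and 2.64 in Control, and 3.09 and 3.38 in Brg1KD. Within batch 1 the histone ratio of Ino80KD to Control was 1.08. INO80 subunit genes were the other list above both Control libraries in Ino80KD, on 5 and 4 loops in Ino80KD against 4 and 3 in Control from 3 genes, and with a gene end on the bait this ratio turned to 0.797. BAF subunit genes, primitive endoderm, fibroblast feeder and trophoblast markers were the lists below both Control libraries in Ino80KD, on 1 to 13 loops a library, and the trophoblast ratio turned to 1.08 at a score of at least 7. Markers of other cell types were listed at 0.193 to 2.71 per 1000, and contacts alone do not tell cell types apart.

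In the authors' deposited tables the lists had 0 adjusted calls. Histone genes had a median log2 fold change in range of -0.24 in the authors' deposited table for Brg1KD, above 0 at 9 of 43 regions, and of 0.21 in that for Ino80KD, above 0 at 57 of 74, where all regions in range had 0.016 and 0.040. Histone genes share baits and lie in clusters, so that the 43 and 74 regions come from 19 and 24 baits and are not independent. Hox genes had 0.17 in the authors' deposited table for Brg1KD, above 0 at 47 of 58 regions, and 0.082 in that for Ino80KD, above 0 at 33 of 56, with 0 regions called before adjustment in either. The Hox regions came from 16 and 17 baits that lie in clusters and are not independent. Calls before adjustment are to be read beside the 0.876% lower and 0.511% higher of all regions in range in the authors' deposited table for Brg1KD, and the 0.312% and 1.24% in that for Ino80KD. Primed epiblast genes had -0.42 (3 lower and 0 higher of 10) in the authors' deposited table for Brg1KD and 0.085 (0 of 12 called) in that for Ino80KD. Developmental regulators had -0.093 (7 lower and 0 higher of 78 called before adjustment) in the authors' deposited table for Brg1KD and 0.083 (0 lower and 1 higher of 84) in that for Ino80KD. Pluripotency genes had -0.062 (2 lower and 0 higher of 36) and 0.17 (0 lower and 2 higher of 50) in the authors' deposited tables. Regions of 1 bait are not independent here either. The primed epiblast regions came from 6 and 8 baits, those of developmental regulators from 47 and 48, and those of pluripotency genes from 20 and 28. Zic5, Zic2 and Foxa2 are in both the primed epiblast list and the developmental list, so these lists are not separate evidence. For polycomb genes the authors' deposited tables gave -0.11 and 0.069, and for ribosomal protein genes -0.0067 and 0.13. The other lists had medians of -0.18 to 0.17 in the authors' deposited table for Brg1KD and of -0.16 to 0.21 in that for Ino80KD, on 7 to 41 regions each.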

How the data were processed

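The deposited loop lists, 1 for each of the 6 libraries, give a bait, an other end and an interaction score, which the authors computed and listed from 5 up. The deposited comparison tables give, for a region and its bait, a log2 fold change and its error, a p-value and an adjusted p-value, and a mean signal over libraries; these were made by the authors, and replicates are not shown there. Coordinates are in mm10, and bedtools is named, per the submitters' processing notes. The loop caller, the tool behind the tables and the direction of the fold change are not given in the sources used here. Read counts per library were not analysed, so no count model was fitted, the depth is unknown and the deposited p-values are described only.

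A bait was named by a protein-coding gene with an end on it, then by one with an end within 2 kb, then by one holding it, in RefSeq's table for GRCm38.p6. Groups were compared over libraries with exact two-sided permutation tests, and distance classes with exact sign permutations over the 6 libraries, in Python 3.11.15 with pandas 2.3.3 and numpy 2.4.6, and tested on simulated data. Named were 28 fixed genes, the 10 genes with the most loops, the 10 loops with the highest lowest rank among those in all 6 libraries, the 8 contacts in each direction of each table with the smallest unadjusted p whose bait has a named gene, 1 per gene, and the 5 loops in each direction with the highest mean rank among those in both libraries of a group and neither of another. The members, gene lists and rules were chosen with earlier results of these data known, and the CpG classes and the comparison of score ranks after these values were seen. Replicate numbers follow the batch between the depletions, while only replicate 1 shares a batch with Control. The alternatives were other distance limits, a score of at least 7, regions without a bait, and leaving out each library.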

Additional observations from a re-analysis of the deposited data

How the results depend on the processing

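Among values under alternatives for the results that answer a comparison, 267 kept their direction and their side of the threshold or stayed within their margin, 36 moved further, 3 reversed, 2 fell short of the threshold and 2 newly passed it. The 267 include settings that could not move a value, such as the tolerance for ends at properties that do not use it. They also include values that changed sign within their margin, so they do not measure robustness. The 2 that fell short concern loops listed again, over pairs that share loops. The 2 that newly passed concern the median score under a limit on the score. With a replicate block, the log2 ratio of mid-range loops was -0.063 for Brg1KD against Control, 0.064 for Ino80KD against Control and 0.13 for Ino80KD against Brg1KD (exact permutation p = 0.5, 1 and 0.5). With 2 pairs this p cannot go below 0.5, so the block could not show a difference between groups. Replicate 2 of Control was also in another batch than replicate 2 of the depletions. Leaving out 1 library gave log2 ratios of -0.20 to 0.084, -0.077 to 0.21 and 0.018 to 0.24 in that order, and share differences of 0.378 to 8.41, 0.292 to 4.85 and -5.84 to 2.19 points. At a score of at least 7, the difference from unbaited loops under 50 kb in loops listed again was -2.26 points, with no p given because pairs share loops. The differences in median score there were 0.21 and 0.067 (exact permutation, adjusted p = 0.0341 for both), on fewer loops and under a limit on the score itself. For 50 to 100 kb against 25 to 50 kb, the difference in loops listed again was -4.07 points, again with no p given. The difference in other ends met by several baits turned to -3.15 points (exact permutation, adjusted p = 0.0682). In regions without a bait, the medians of the authors' deposited tables turned to -0.037 in Brg1KD and -0.048 in Ino80KD, with 4 higher and 23 lower and with 6 higher and 5 lower calls. With p under 0.01 before adjustment, the authors' deposited tables had 2 higher and 26 lower calls in range in Brg1KD and 15 higher and 6 lower in Ino80KD. The share over all regions at this limit was not counted, so these calls are not read as a result about mid-range contacts. By GC content, highest less lowest of 4 classes, the Brg1KD difference by promoter was -0.084 in the authors' deposited table, an alternative chosen after seeing the data. The causes were not tested.

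Counts of the 15 gene lists that separate 2 groups depended on the setting. For Brg1KD below Control (4) they were 2 at a score of at least 7, 2 per 1000 intrachromosomal loops, 13 in batch 1 and 5 to 11 with 1 library left out. For Brg1KD above Control (0) they were 1, 1, 2 and 1 to 4. For Ino80KD below Control (4) they were 2 with a gene end on the bait, 1 at a score of at least 7, 7 in batch 1 and 5 to 7 with 1 library left out, and for Ino80KD above Control (2) they were 1 with a gene end on the bait, 8 in batch 1 and 3 to 6 with 1 library left out. For Ino80KD below Brg1KD (2) they were 1 with a gene end on the bait, 1 at a score of at least 7, 4 in batch 1, 7 in batch 3 and 2 to 5 with 1 library left out, and for Ino80KD above Brg1KD (6) they were 11 in batch 1 and 7 to 9 with 1 library left out. With fewer libraries more lists separate by construction, so these counts carry little weight.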
